A study of Salmo salar with 9 samples.

Results

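The comparison of the Laminaria digitata diet with the fishmeal control used the head kidney transcriptomes of 6 of the 9 Atlantic salmon (Salmo salar) in the series. The labels gave 3 diet groups. FMC was the fishmeal-based control, SW1 held 10% of the brown seaweed L. digitata, and SW2 held 10% of the commercial seaweed blend Oceanfeed. The SW1 and FMC fish, 3 each, were chosen by their diet label alone, and the 3 SW2 fish are given only beside them. Each fish had received its diet for 42 days and then an injection of Escherichia coli lipopolysaccharide (LPS, 6 mg per kg), and was sampled 68 to 70 h after it. The fish came from a commercial farm, and 1 fish per tank was sequenced, so tank and fish cannot be told apart. No fish without LPS is among the samples, so every value describes challenged fish, and a diet effect in resting fish was not measured here.

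The authors counted reads per contig on 2 references, a de novo assembly of their own reads and S. salar cDNA sequences from NCBI. Of the 87600 de novo contigs, 87494 had at least 10 counts summed over the 6 fish and were tested. Of these, 41268 carried the name of a protein from their best database match, often in another species, 34860 matched an unnamed sequence and 11366 had no match. Several contigs can carry 1 protein name, as fragments of a transcript, alleles or the duplicate genes that salmonids keep, and which of these applies cannot be told apart here. The NCBI reference, with 22854 contigs tested of 48223, served as a check. The unit of a level is CPM, a contig's counts scaled to 1000000 counts of the normalized library. Levels are compared between fish for 1 contig, since contig length is not corrected for.

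The head kidney of bony fish joins the functions of bone marrow and adrenal gland in 1 organ. Blood-forming tissue makes up most of it, while interrenal cells make cortisol from cholesterol and chromaffin cells make adrenaline. Cortisol acts through the glucocorticoid receptor, a transcription factor, and in fish and mammals it raises a well-known set of target genes, restrains inflammation and shifts cells from growth towards the use of stores. Many of the same targets are also tied to the circadian clock, a loop in which cryptochrome and period proteins repress their own activators.

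The 6 de novo libraries held 8259299 to 12228633 counts and the NCBI libraries 2158027 to 3203677. A principal component analysis of the de novo libraries set FMC fish 2 and SW1 fish 1 at 121 and 108 on its first axis (46.5% of the variance) and the other 4 fish at -88 to -37.8. FMC fish 2 also held far more red blood cell RNA than any other fish, with hemoglobin contigs summing to 25200 CPM against 1460 to 5970 CPM in the other 5 fish of the comparison. Some values that rest on either fish are therefore given with and without it. In whole tissue, fewer cells of a type and less RNA per cell cannot be told apart.

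Few contigs separated the diets beyond the spread between fish. With edgeR's quasi-likelihood test and Benjamini-Hochberg adjustment over all contigs, 4 of 87494 contigs passed an adjusted p under 0.05 (0.00457%), 1 higher (0.00114%) and 3 lower (0.00343%) in SW1. At an unadjusted p under 0.05, 1024 contigs were higher (1.17%) and 687 lower (0.785%). All SW1 fish lay above all FMC fish in 2.92% of the contigs and below them in 2.62%. Leaving out a fish that stood apart raised these shares. Higher and lower contigs made up 1.38% and 1.97% without SW1 fish 1, 2.08% and 1.1% without FMC fish 2, and 2.87% and 2.13% without both. Both fish were picked from these same libraries, and leaving them out can narrow the spread within each diet. Calls and counts without both are therefore no independent support. The counts of the lists moved with these fish, and some of the larger moves are given beside the lists. List counts over all 6 fish are read against the shares over all 6 fish. Counts without SW1 fish 1, FMC fish 2 or both are read against the shares without the same fish. In the lists described further on, "higher" or "lower" means an unadjusted p under 0.05 unless another measure is named.

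Of the called contigs, 2 had a protein name and both fell. C18orf8, whose human homologue belongs to a complex that matures late endosomes, had 12.5, 23.5 and 16.8 CPM in the FMC fish and 1.99, 1.74 and 1.83 CPM in the SW1 fish. This is a 9.46-fold lower level, with a log2 fold change of -3.24 (SE 0.361, adjusted p = 0.0361 from edgeR). Ras association domain-containing protein 2 (RASSF2), a Ras-binding regulator of cell death and growth in mammals, had 15.8, 32.4 and 27.3 CPM in the FMC fish and 3.02, 1.34 and 2.26 CPM in the SW1 fish. It was 11.2-fold lower, with a log2 fold change of -3.48 (SE 0.411, adjusted p = 0.0456 from edgeR). In both contigs the SW1 fish lay close together and far below every FMC fish.

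The other called contigs matched rainbow trout transcripts with no protein name. Contig 21169 fell from 15.4, 28.5 and 17.8 CPM in the FMC fish to 1.58, 0.668 and 0.697 CPM in the SW1 fish, a log2 fold change of -4.33 (SE 0.444, adjusted p = 0.0361 from edgeR). Contig 45761 rose from 0.499, 1.62 and 1.68 CPM in the FMC fish to 18.9, 21.9 and 16.5 CPM in the SW1 fish, a log2 fold change of 3.93 (SE 0.441, adjusted p = 0.0361 from edgeR). The SW2 fish did not sit together in the contigs that fell. SW2 fish 2 was as low as the SW1 fish, at 0.853 CPM in contig 21169, 1.71 CPM in C18orf8 and 1.07 CPM in RASSF2, while SW2 fish 1 and 3 lay at 20.3 and 36.9, 15.5 and 23, and 10.4 and 36.4 CPM. Contig 45761, in contrast, was low in all 3 SW2 fish, at 0.803 to 1.07 CPM.

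These calls stood near the threshold. None of the 4 passed with limma voom (adjusted p = 0.0519 for 3 of them and 0.0623 for RASSF2) or when at least 10 counts in 3 fish were required (0.0502 for 3 of them and 0.0797 for RASSF2). In edgeR, leaving out SW1 fish 3 ended all 4 calls (adjusted p = 0.196 to 0.396), as did leaving out SW1 fish 2 (0.0844 to 0.146) or FMC fish 3 (0.0794 to 0.165). Without SW1 fish 1 contig 21169 kept its call while C18orf8, contig 45761 and RASSF2 did not (0.0604 to 0.0693), and without FMC fish 1 contig 45761 lost it (0.0596). The log2 fold changes kept their direction under every alternative run. Over the 15 alternatives, contig 21169 passed in 8, C18orf8 and contig 45761 in 7 each, and RASSF2 in 6. Of the uncalled contigs described further on, sorting nexin-18 passed in 4 and DDIT4 in 2.

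**Figure D1:**
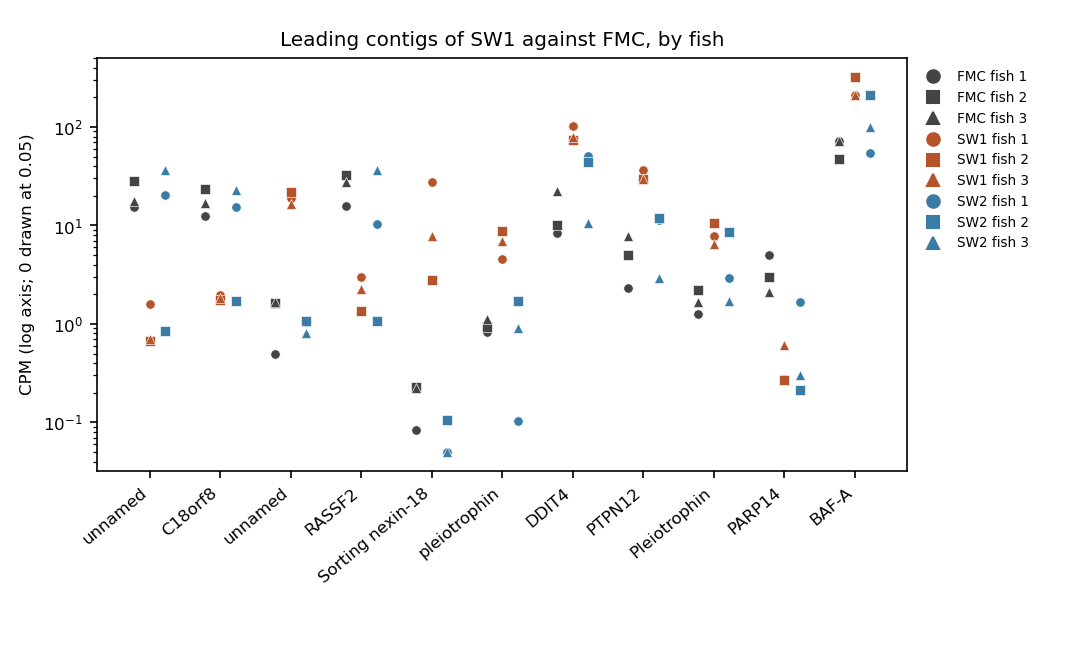
CPM of each fish, on a log axis, for the 4 called contigs and the contigs with the next smallest p among those named by the rule given under processing; each point is 1 fish, with the colour for the diet and the shape for the fish number, and a CPM of 0 is drawn at 0.05. No overlap between SW1 and FMC was a condition for the uncalled contigs of no list, so it is no result for them. In the 3 called contigs that fell, 1 SW2 fish sits with SW1 and 2 with FMC.

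Below the threshold, the contigs given next were among those with the smallest p that the rule given under processing named. For contigs of no list, that rule required no overlap between the diets and took up to a set number per direction. Neither the lack of overlap nor the balance of directions is therefore a result for them. The rule also required a minimum count, which sorting nexin-18 met through its SW1 fish alone. Sorting nexin-18, which bends membranes in endocytosis and autophagy, had only 1, 2 and 2 counts in the FMC fish and 405, 21 and 89 counts in the SW1 fish, that is 0.0831, 0.231 and 0.224 CPM against 27.8, 2.81 and 7.75 CPM. Its log2 fold change was 6.13 (SE 0.864, adjusted p = 0.127 from edgeR), with SW1 fish 1 far above the other SW1 fish. Pleiotrophin, a secreted heparin-binding growth factor, was read on a pair of contigs. Contig 57447 lay at 0.831, 0.925 and 1.12 CPM in the FMC fish and 4.6, 8.69 and 6.97 CPM in the SW1 fish, a log2 fold change of 2.79 (SE 0.399), and contig 48196 had a log2 fold change of 2.28 (SE 0.373). On both, every SW1 fish lay above every FMC fish, which the rule required of contigs of no list.

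Tyrosine-protein phosphatase non-receptor type 12, which acts on adhesion and cytoskeletal proteins, had 2.33, 4.97 and 7.85 CPM in the FMC fish and 36.7, 29.7 and 29.7 CPM in the SW1 fish. Its log2 fold change was 2.67 (SE 0.415). Barrier-to-autointegration factor A, a small protein that ties DNA to the nuclear lamina, had 72.7, 47.7 and 71.8 CPM in the FMC fish and 212, 323 and 212 CPM in the SW1 fish, a log2 fold change of 1.95 (SE 0.349). In the other direction, poly(ADP-ribose) polymerase 14, a mono-ADP-ribosyltransferase linked to macrophage signalling in mammals, had 5.07, 3.0 and 2.13 CPM in the FMC fish and 0.275, 0.267 and 0.61 CPM in the SW1 fish, a log2 fold change of -3.12 (SE 0.518). None of these passed in edgeR over the 6 fish. DESeq2, which called 27 contigs, and edgeR without FMC fish 2 and SW1 fish 1, which called 98, both called sorting nexin-18, both pleiotrophin contigs, the phosphatase, the barrier factor and the polymerase. The latter fit left out fish chosen from these data, so its calls add no independent support. Sorting nexin-18 was also called with all 9 fish in the fit and without SW1 fish 2. On the NCBI reference, contigs named after the polymerase had log2 fold changes of -0.25 and -0.07 with overlap. They lay at 333 to 756 and 92.1 to 116 CPM in the 6 fish. These levels cannot be set against the de novo contig, since contig length and library totals differ. The NCBI contig named pleiotrophin was at 0.79 (SE 0.335) without overlap.

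Contigs of the glucocorticoid response, proteins whose genes cortisol is known to induce together with its receptors, held the largest share of higher contigs among the lists of metabolism, hormones, stress and structure. Of 52 contigs tested under 19 names, 11 were higher (21.2%, against 1.17% of all contigs) and 2 lower (3.85%, against 0.785%). The SW1 fish lay above all FMC fish in 10 (against 2.92% of all contigs) and below them in 2 (against 2.62%). The list was not shifted as a whole, since 29 of the 52 had a log2 fold change above 0, where 48.4% of all contigs did, and the median was 0.09, against -0.0139 over all contigs. With all 6 fish edgeR called none of the 52, and their lowest adjusted p was 0.271. Without both fish that stood apart, edgeR called 5 of the 49 then tested, which were DDIT4 and 4 of the FKBP5 contigs described next. That fit called 98 of all 84389 contigs. In it 11 of the 49 were higher and 2 lower, against 2.87% and 2.13% of all contigs, and the median was 0.00. Without SW1 fish 1 the counts were 9 higher and 3 lower of 51, against 1.38% and 1.97% of all contigs. Without FMC fish 2 they were 12 and 1 of 51, against 2.08% and 1.1%. Over all fish left out in turn the higher count was 9 to 15. These contigs were not independent of each other, since 6 of the 11 were named after the same protein, FKBP5. The list and its members were also chosen with earlier results of these data known. Its rank and shares are therefore no independent support.

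DNA damage-inducible transcript 4 protein (DDIT4, also called REDD1) restrains growth signalling through mTOR complex 1 and is induced by glucocorticoids and by low oxygen in mammals. Its contig had 8.31, 10.2 and 22.2 CPM in the FMC fish and 102, 73.3 and 79.5 CPM in the SW1 fish. The SW1 fish thus lay 6.23-fold higher on average with no overlap, a log2 fold change of 2.64 (SE 0.405, unadjusted p = 2.87e-05 from edgeR). The SW2 fish spread between both groups, at 50.8, 44.3 and 10.7 CPM. The difference of SW1 from SW2 was 1.27 on the log2 scale, with an unadjusted p of 0.0179 from edgeR that did not pass adjustment. DDIT4 was called by DESeq2 (adjusted p = 1.91e-06) and by edgeR without FMC fish 2 and SW1 fish 1 (adjusted p = 0.00083). The latter fit is no independent support, since its fish were left out after these data were seen.

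FKBP5 is a co-chaperone that binds the glucocorticoid receptor complex, lowers its affinity for hormone and is itself a classic target of the receptor. All 6 contigs named FKBP5 were higher in SW1, with log2 fold changes of 1.65 to 3.57, the last on a contig with 0, 1 and 2 counts in the FMC fish. Contig 4922 had 32.8, 13.1 and 28.7 CPM in the FMC fish and 98, 92.2 and 105 CPM in the SW1 fish, a log2 fold change of 1.98 (SE 0.373). Contig 28368 had 9.47, 5.55 and 9.53 CPM in the FMC fish and 26.8, 23.9 and 33.4 CPM in the SW1 fish, a log2 fold change of 1.77 (SE 0.332). No SW1 fish overlapped an FMC fish on any of the 6. DESeq2 called 4 of the 6 (adjusted p = 0.00175 to 0.0225), as did edgeR without FMC fish 2 and SW1 fish 1 (0.00656 to 0.0401). The SW2 fish were as high, at 183, 106 and 82.6 CPM on the former contig and 49.1, 28.3 and 25.4 CPM on the latter. Tested directly, SW1 and SW2 gave unadjusted p-values of 0.248 to 0.766 on the 6 contigs in edgeR, and the FMC fish were the low ones.

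Other targets in the list were named after their values were seen, since they ranked behind the 4 members that the naming rule took. Where a name has several contigs, the values are of the contig with an unadjusted p under 0.05. Krueppel-like factor 9, a transcription factor that follows cortisol, had 2.74, 6.36 and 6.51 CPM in the FMC fish and 21.1, 13.2 and 11.8 CPM in the SW1 fish, a log2 fold change of 1.56 (SE 0.394), while its 3 contigs ran from -0.11 with a median of 0.18. Dual specificity protein phosphatase 1, which switches off MAP kinases, had 11.5, 12.1 and 14.9 CPM in the FMC fish and 31.4, 24.7 and 22 CPM in the SW1 fish, a log2 fold change of 1.01 (SE 0.299). Both were without overlap. TSC22 domain family protein 3, the glucocorticoid-induced leucine zipper, had 15.3, 41.5 and 31.2 CPM in the FMC fish and 125, 53.6 and 41.1 CPM in the SW1 fish, so that SW1 fish 3 lay below FMC fish 2. The 4 contigs of this name had log2 fold changes of -0.69 to 1.31, with a median of 0.07. The kinase Sgk1 had 1.16, 1.73 and 1.01 CPM in the FMC fish and 5.63, 1.47 and 2.18 CPM in the SW1 fish, again with overlap, and its 4 contigs ran from -0.40 to 1.27 with a median of 0.91. On the contigs of the last pair given by fish, SW1 fish 1 lay far above the other SW1 fish. With 1 fish left out in turn, their log2 fold changes ran from 0.70 to 1.65 for TSC22 domain family protein 3 and from 0.52 to 1.61 for Sgk1.

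The receptors did not follow the targets. The 4 contigs named glucocorticoid receptor had log2 fold changes of -0.39 to 0.19, none with an unadjusted p under 0.05. The 11 contigs of glucocorticoid-induced transcript 1 protein had a median of -0.24, and the metallothionein contig, a metal-binding protein that cortisol and zinc induce, had a log2 fold change of -0.03. The 2 lower contigs of the list were 1 of DDIT4-like protein and 1 of the mineralocorticoid receptor. Summed over all 52 contigs, the list took 284, 336 and 332 CPM in the FMC fish, 706, 514 and 541 CPM in the SW1 fish and 654, 491 and 420 CPM in the SW2 fish, so that each seaweed-fed fish lay above each FMC fish. On the NCBI reference the sums overlapped. They were 316, 712 and 527 CPM in the FMC fish, 1900, 810 and 701 CPM in SW1 and 728, 824 and 563 CPM in SW2.

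**Figure D2:**
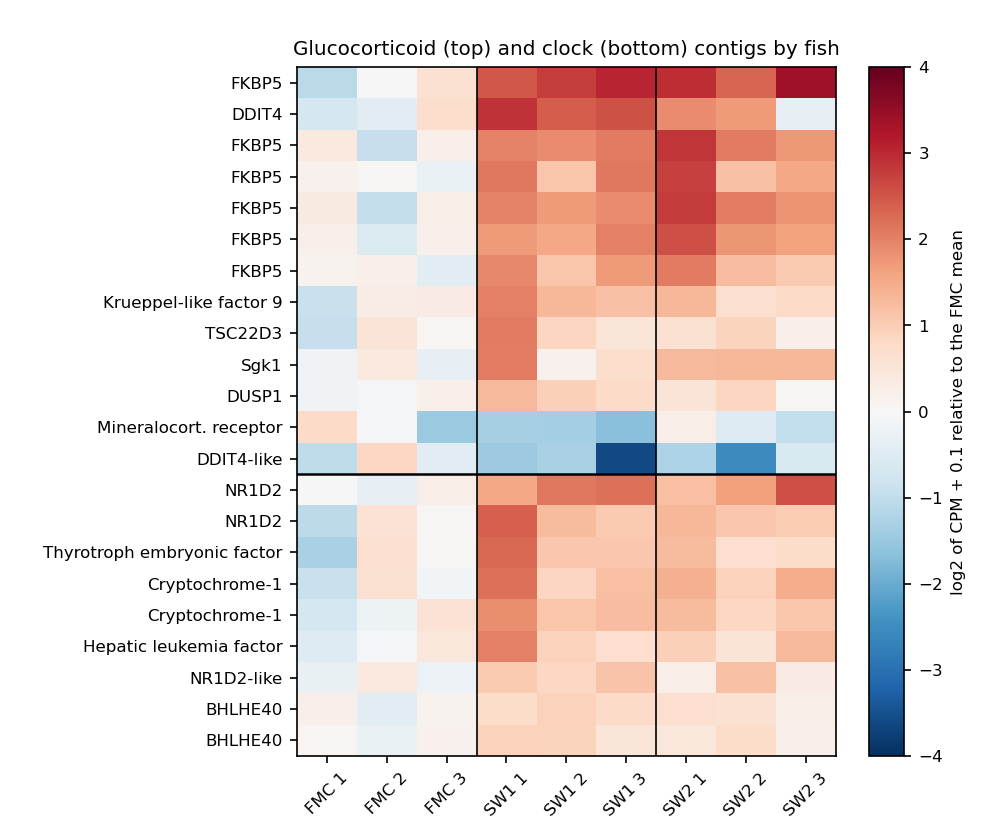
Heat map of the glucocorticoid response (top, 11 higher and 2 lower) and circadian clock contigs (bottom, 9 higher) with an unadjusted p under 0.05 in SW1 vs. FMC; each row is a contig, each column a fish, and the colour is the log2 of CPM + 0.1 relative to the FMC mean. SW1 fish 1 is the reddest SW1 column in most clock rows, and the SW2 columns are red in the FKBP5 rows as well.

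Clock contigs also held higher members. Both lists contain the 3 contigs of period circadian protein homolog 1. All SW1 fish lay above all FMC fish on 1 of these, and 0 were higher. Of the 78 clock contigs under 24 names, 9 were higher (11.5%, against 1.17% of all contigs) and 0 lower (against 0.785%). The SW1 fish lay above all FMC fish in 11 (against 2.92% of all contigs) and below them in 0 (against 2.62%). The median was 0.09 and the lowest adjusted p was 1.0 in edgeR. Without SW1 fish 1 the counts were 8 and 0 of 78, against 1.38% and 1.97% of all contigs. Without FMC fish 2 they were 10 and 1 of 78, against 2.08% and 1.1%. Over all fish left out in turn the higher count was 7 to 12. The clock list, too, was chosen with earlier results known, so its shares are no independent support. Cryptochrome-1, a repressor of the clock's activators, had 4.65, 6.59 and 11.4 CPM in the FMC fish and 27.4, 16.3 and 18 CPM in the SW1 fish on contig 60315, a log2 fold change of 1.44 (SE 0.381). A further cryptochrome-1 contig had a log2 fold change of 1.57 (SE 0.459). The remaining cryptochrome-1 contigs, 8 of 10, were neither higher nor lower, and the lowest log2 fold change among the 10 was -0.73.

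The nuclear receptor NR1D2, also known as REV-ERB beta, ties the clock to lipid metabolism. Its contig 63914 had 1.25, 4.05 and 2.8 CPM in the FMC fish and 14.6, 6.68 and 5.66 CPM in the SW1 fish, a log2 fold change of 1.75 (SE 0.48). Thyrotroph embryonic factor, an output factor of the clock, had 2.58, 10.2 and 6.62 CPM in the FMC fish and 32.1, 13.8 and 13.6 CPM in the SW1 fish, a log2 fold change of 1.62 (SE 0.492). The related hepatic leukemia factor, named after its values were seen, had 5.65, 7.74 and 11.2 CPM in the FMC fish and 33.4, 15.5 and 13.2 CPM in the SW1 fish, a log2 fold change of 1.33 (SE 0.407). On these 3 contigs the SW1 fish were above the FMC fish, and SW1 fish 1 stood well above the other SW1 fish. With 1 fish left out in turn, their log2 fold changes ran from 1.21 to 2.17, 1.1 to 2.12 and 0.82 to 1.61. Most other contigs of these names did not follow. Of the 7 named NR1D2, 2 were higher, both without overlap, with log2 fold changes up to 2.4. Among the 7, 3 were above 0 and the median was -0.20. A contig named NR1D2-like, 1 of 3, was also higher, at 1.1. The 5 of hepatic leukemia factor had 2 above 0 and a median of -0.16, and a further thyrotroph embryonic factor contig was at -0.16. Class E basic helix-loop-helix protein 40 had 10 contigs, 2 higher and 3 above 0, with a median of -0.37. The activators of the loop differed less. The 5 contigs of aryl hydrocarbon receptor nuclear translocator-like protein 1 (BMAL1) had log2 fold changes of 0.05 to 0.77 and the 3 of the CLOCK protein -0.38 to 0.19, with no unadjusted p under 0.05. The hour of sampling of each fish is not given in the sources used here, so its part in these values was not tested.

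Interrenal genes, which make cortisol, lay mostly above 0 but differed more between fish than between diets. Of 22 contigs, 2 were higher and 0 lower, 16 had a log2 fold change above 0 and the median was 0.26. Both higher contigs encoded the cholesterol side-chain cleavage enzyme, the first enzyme of steroid synthesis. One had 0.831, 2.2 and 2.36 CPM in the FMC fish and 3.29, 4.41 and 7.67 CPM in the SW1 fish (log2 fold change 1.53, SE 0.47), and the SW2 fish had 7.68, 2.99 and 9.23 CPM. The other had 10.2, 25.9 and 27.4 CPM in the FMC fish and 27.2, 47.1 and 64.7 CPM in the SW1 fish, with overlap. The third contig of this name had a log2 fold change of 0.75, and 3 more contigs matched to the same enzyme of rainbow trout had -0.37 to 0.15, with 1 above 0. The steroidogenic acute regulatory protein, which brings cholesterol to that enzyme, had log2 fold changes of -0.42 to 0.87 on 3 contigs and steroid 21-hydroxylase of 0.3 and 0.43, none with an unadjusted p under 0.05. Summed, the list took 653, 3040 and 1510 CPM in the FMC fish and 1520, 2760 and 2850 CPM in the SW1 fish, with FMC fish 2 the highest of the 6. Without FMC fish 2, 7 contigs were higher and 0 lower and the median was 0.71, while the higher count was 4 without SW1 fish 1, 1 without FMC fish 1 and 0 without SW1 fish 3. Without both FMC fish 2 and SW1 fish 1, 13 of the 22 were higher and 0 lower, 1 of them at an adjusted p under 0.05 in edgeR, and the median was 0.99. Of all contigs, 1.17% were higher with all 6 fish and 1.38% without SW1 fish 1. This share was 2.08% without FMC fish 2 and 2.87% without both. The share of interrenal tissue in each sample was not measured, so its part in these levels was not tested.

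Other hormone lists held no contig past an unadjusted p under 0.05 in either direction. They were growth hormone, insulin and insulin-like growth factors (54 contigs, median 0.03), thyroid hormone and iodine handling (8 contigs, median 0.00) and chromaffin cells (3 contigs). Insulin-like growth factor binding protein 5 had the smallest p of the first list, with 0.914, 1.62 and 1.23 CPM in the FMC fish and 4.05, 2.41 and 0.958 CPM in the SW1 fish. Phenylethanolamine N-methyltransferase, which makes adrenaline, had 1.25, 4.39 and 2.24 CPM in the FMC fish and 10.2, 2.01 and 3.4 CPM in the SW1 fish. Both overlapped between the diets. Type I iodothyronine deiodinase, which activates and clears thyroid hormone, had a log2 fold change of 0.00 with an unadjusted p of 0.993 from edgeR.

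**Figure D3:**
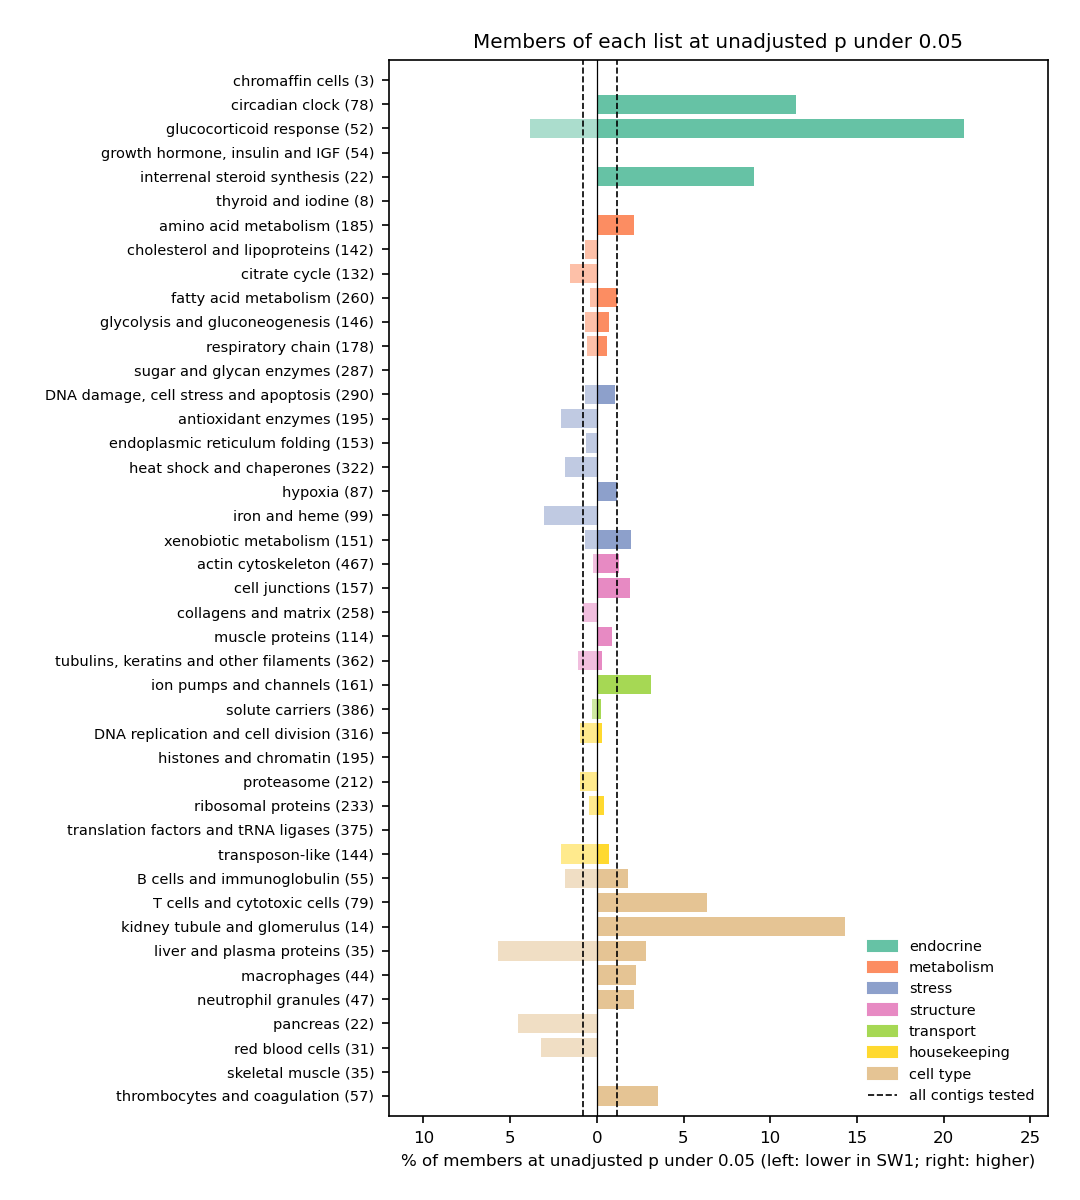
Share of the contigs of each list that were higher (to the right) or lower (to the left) in SW1 vs. FMC at an unadjusted p under 0.05, in percent of the contigs tested, with the number of contigs tested in brackets and the shares over all 87494 contigs as dashed lines. The glucocorticoid response (21.2% higher), kidney tubule (14.3%) and circadian clock (11.5%) lie farthest to the right, on 52, 14 and 78 contigs.

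Central metabolism gave few contigs in either direction. Glycolysis and gluconeogenesis had 1 higher and 1 lower contig of 146 (median 0.04), the citrate cycle 0 and 2 of 132 (median -0.11), and the respiratory chain 1 and 1 of 178 (median 0.08). For sugar and glycan enzymes, 0 of 287 were higher and 0 lower (median 0.00). Phosphoenolpyruvate carboxykinase, the gatekeeper of glucose synthesis and a cortisol target in liver, had 1.58, 1.96 and 2.8 CPM in the FMC fish and 3.5, 2.54 and 4.09 CPM in the SW1 fish, which overlapped (log2 fold change 0.69, SE 0.376). Cytochrome b-c1 complex subunit 7, part of respiratory complex III, had 65.7, 162 and 55.4 CPM in the FMC fish and 2.68, 35.3 and 21.3 CPM in the SW1 fish, a log2 fold change of -2.27 (SE 0.709). The SW2 fish were also low on it, at 3.01, 19.1 and 2.01 CPM. Most contigs of the chain did not share this direction, since 122 of the 178 had a log2 fold change above 0. Without both fish that stood apart, 11 of the 178 contigs of the chain were higher and 1 lower. Of all contigs, 2.87% were then higher and 2.13% lower.

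Lipid genes likewise gave few contigs. In fatty acid metabolism 3 of 260 were higher and 1 lower (median -0.03), and among cholesterol and lipoprotein genes 0 of 142 were higher and 1 lower (median -0.06). The fatty acid list had 4 higher and 7 lower of 260 without FMC fish 2, and 15 and 2 of 256 without both fish. Of all contigs, 2.08% were higher and 1.1% lower without FMC fish 2, and 2.87% and 2.13% without both. Fatty acyl-CoA reductase 1, a peroxisomal enzyme that makes the fatty alcohols of ether lipids, had 19.3, 54.4 and 44.6 CPM in the FMC fish and 159, 84.1 and 63.5 CPM in the SW1 fish, a log2 fold change of 1.36 (SE 0.443) without overlap. Oxysterol-binding protein-related protein 11 had 4.57, 21.3 and 5.05 CPM in the FMC fish and 7.14, 3.07 and 4.7 CPM in the SW1 fish, so that its lower mean came from FMC fish 2 alone. In amino acid metabolism 4 of 185 were higher and 0 lower (median 0.01), none of them with 10 counts in 3 fish. Glutamate dehydrogenase 1, which links glutamate to the citrate cycle, varied widely within SW1, at 10.9, 6.47 and 9.2 CPM in the FMC fish and 1.24, 10.6 and 1.05 CPM in the SW1 fish.

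Enzymes that handle foreign compounds gave 3 higher and 1 lower contig of 151. Amine sulfotransferase had 1.5, 1.73 and 2.69 CPM in the FMC fish and 4.12, 6.02 and 4.18 CPM in the SW1 fish, a log2 fold change of 1.26 (SE 0.373). Fatty aldehyde dehydrogenase, which oxidises long-chain aldehydes, had 21.4, 17.2 and 20.2 CPM in the FMC fish and 31.4, 36.4 and 25.3 CPM in the SW1 fish, a log2 fold change of 0.65 (SE 0.295). Neither overlapped. Cytochrome P450 1B1, a target of the aryl hydrocarbon receptor, had 3.16, 5.32 and 2.69 CPM in the FMC fish and 10.4, 4.68 and 6.71 CPM in the SW1 fish, with SW1 fish 2 below FMC fish 2.

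The heat shock, antioxidant and iron lists held lower contigs only with all 6 fish, and several of these followed a single fish. Of 322 heat shock and chaperone contigs, 0 were higher and 6 lower (median -0.05). Of 195 antioxidant contigs 0 were higher and 4 lower (median 0.01), and of 99 iron and heme contigs 0 and 3 (median -0.10). The iron and heme list had 2 higher and 13 lower contigs without SW1 fish 1, 2 and 1 without FMC fish 2, and 3 and 10 without both. Without both, the antioxidant list had 6 higher and 5 lower of 193 and the heat shock list 4 and 8 of 318. Of all contigs, 1.38% were higher and 1.97% lower without SW1 fish 1. These shares were 2.08% and 1.1% without FMC fish 2, and 2.87% and 2.13% without both. Among the 6 lower heat shock contigs with all 6 fish were 3 of heat shock cognate 71 kDa protein, a constitutive chaperone. On the one with the smallest p the FMC fish had 2.16, 19.9 and 2.47 CPM and the SW1 fish 1.03, 3.34 and 2.35 CPM. Catalase, which breaks down hydrogen peroxide and is plentiful in red blood cells, had 9.06, 65.4 and 12.7 CPM in the FMC fish and 13.8, 12.2 and 8.71 CPM in the SW1 fish on contig 41045. In each of these contigs FMC fish 2 was far above the other 5 fish.

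Red blood cell markers moved with the same fish. The 31 contigs of that list had a median of -1.12, with 3 above 0, and their sum was 2750, 32800 and 4800 CPM in the FMC fish and 8270, 4700 and 2460 CPM in the SW1 fish. Without FMC fish 2 their median was 0.20. Without SW1 fish 1 it was -1.54 with 13 of the 31 lower, where 1.97% of all contigs were lower. Ankyrin-1, an anchor of the red cell skeleton, had 2.49, 30.0 and 4.49 CPM in the FMC fish and 6.18, 3.34 and 2.35 CPM in the SW1 fish. Hypoxia-inducible factor 1 alpha, the oxygen sensor's transcription factor, had the same outline, at 8.39, 108 and 22.5 CPM against 18.7, 21.1 and 15.2 CPM. With all 6 fish, ankyrin-1 had a log2 fold change of -1.63, hypoxia-inducible factor 1 alpha of -1.35 and the 3 heat shock cognate contigs of -1.90, -1.68 and -1.67. Without FMC fish 2 these became 0.20, 0.24, -0.10, -0.08 and 0.08. The part of red blood cell RNA in these values was not tested.

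A chaperone contig outside this outline was T-complex protein 1 subunit epsilon, part of the ring that folds actin and tubulin. It had 333, 817 and 309 CPM in the FMC fish, 18.9, 203 and 113 CPM in the SW1 fish and 12.9, 121 and 13.5 CPM in the SW2 fish. For SW1 vs. FMC the log2 fold change was -2.13 (SE 0.687). The 6 fish stood in the same order as on the complex III contig, with FMC fish 2 the highest and SW1 fish 1 the lowest. The 9 contigs named after this subunit had log2 fold changes of -2.13 to 0.05, with a median of -0.08, and only this 1 was lower. Heme oxygenase, which degrades heme and is a marker of oxidative stress, had 1.33, 1.96 and 0.561 CPM in the FMC fish and 0.824, 0.267 and 0.174 CPM in the SW1 fish on 1 contig, with overlap. Of the 6 contigs of this name 4 had a log2 fold change above 0, the median was 0.15, and the 2 NCBI contigs were at 0.15 and 0.04. Endoplasmic reticulum folding gave 0 higher and 1 lower contig of 153, and hypoxia genes 1 and 0 of 87.

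Among DNA damage, cell stress and apoptosis genes 3 of 290 were higher and 2 lower. Cyclin-dependent kinase inhibitor 1B (p27), which holds cells out of the division cycle, had 1.25, 2.66 and 1.91 CPM in the FMC fish and 7.0, 4.55 and 3.22 CPM in the SW1 fish (log2 fold change 1.35, SE 0.415). Cyclic AMP-dependent transcription factor ATF-3 had log2 fold changes of 1.34 on contig 53102 and 1.16 on contig 81593. On the former the FMC fish had 4.24, 13.4 and 15.5 CPM and the SW1 fish 40, 23.7 and 20.4 CPM. The NCBI contig of this name was at 1.29 (SE 0.448), without overlap. Contig 60183, of the different factor ATF-2, had a log2 fold change of -1.24 (SE 0.562). In the DNA replication and cell division list, G1/S-specific cyclin-E2, a driver of entry into DNA synthesis, had 0.499, 0.809 and 1.01 CPM in the FMC fish and 5.7, 3.34 and 2.0 CPM in the SW1 fish, a log2 fold change of 2.26 (SE 0.488). It was the 1 higher contig of 316, while 3 were lower, among them the replication licensing factor mcm2 at -0.84 (SE 0.383). Without FMC fish 2 this list had 2 higher and 9 lower of 316, and the DNA damage list 9 and 1 of 289. Of all contigs, 2.08% were then higher and 1.1% lower.

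**Figure D4:**
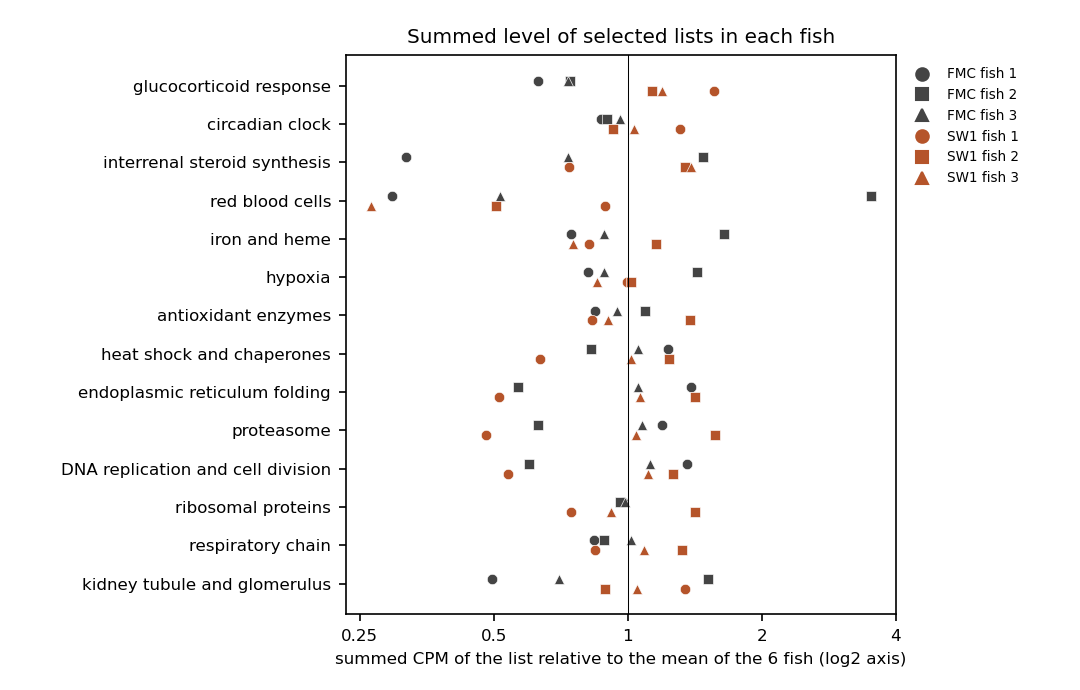
Summed CPM of selected lists in each of the 6 fish, relative to their mean, on a log2 axis, with 1 point per fish, the colour for the diet and the shape for the fish number. On the de novo reference shown here, the glucocorticoid response is without overlap between FMC and SW1, which the NCBI sums did not share. Red blood cell contigs are set apart by FMC fish 2, and interrenal contigs spread within each diet.

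Structural genes gave single contigs in both directions. Of 467 actin cytoskeleton contigs 6 were higher and 1 lower (median 0.01), of 258 collagen and matrix contigs 0 were higher and 2 lower (median 0.04), and of 362 contigs of tubulins, keratins and other filaments 1 was higher and 4 lower (median -0.11). These counts moved with the fish that stood apart, as the shares over all contigs did. Without SW1 fish 1 the actin list had 8 higher and 11 lower of 465, and the matrix list 5 and 8 of 246. The filament list had 2 and 8 of 361, where 1.38% of all contigs were higher and 1.97% lower. Without FMC fish 2 the counts were 6 and 2 of 467, 6 and 3 of 256, and 2 and 16 of 362. The shares over all contigs were then 2.08% and 1.1%. Without both fish they were 11 and 17 of 461, 11 and 15 of 234, and 6 and 20 of 359. All contigs then gave 2.87% and 2.13%. Calponin-3, an actin-binding protein, had 0.831, 0.925 and 1.23 CPM in the FMC fish and 5.01, 2.27 and 7.49 CPM in the SW1 fish, a log2 fold change of 2.31 (SE 0.474). Alpha tropomyosin, which lies along actin filaments, had 0.499, 1.16 and 1.23 CPM in the FMC fish and 5.83, 3.07 and 1.74 CPM in the SW1 fish. Filamin-A, which cross-links actin, had 0.582, 1.16 and 1.35 CPM in the FMC fish and 2.33, 4.28 and 2.53 CPM in the SW1 fish. All 3 were without overlap, and the SW2 fish lay near SW1 on calponin-3 (8.72, 2.24 and 3.71 CPM) and near FMC on alpha tropomyosin (1.14, 0.533 and 1.71 CPM). NCBI contigs of the same name had log2 fold changes of 0.69 for calponin-3 and -0.20 for filamin-A, both with overlap.

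Actin-binding protein anillin, needed for the cleavage furrow of dividing cells, was the lower contig of the actin list, with 5.57, 3.58 and 5.05 CPM in the FMC fish and 3.16, 1.6 and 2.96 CPM in the SW1 fish. Of the filament list, kinesin-like protein kif7 (log2 fold change -1.30, SE 0.453) and microtubule-associated protein 1S (-1.2, SE 0.437) were lower and stathmin-3, a tubulin-binding protein, was higher (0.83, SE 0.361). Cell junction genes gave 3 higher and 0 lower contigs of 157. Catenin beta-1, a junction and Wnt signalling protein, had 1.08, 1.96 and 5.16 CPM in the FMC fish and 11.3, 7.49 and 3.48 CPM in the SW1 fish, with overlap. Parvalbumin beta, a calcium buffer of fish muscle that could mark trunk muscle taken at dissection, had 5.57, 9.25 and 7.29 CPM in the FMC fish and 9.54, 9.22 and 10.1 CPM in the SW1 fish, and 0 of 35 skeletal muscle contigs were higher or lower.

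Transport and tubule genes gave a few higher contigs. Solute carriers had 1 higher and 1 lower of 386 (0.259% each, median -0.02). Ion pumps and channels had 5 and 0 of 161 (3.11% higher, median -0.04). All contigs gave 1.17% higher and 0.785% lower. The solute carriers had 2 higher and 12 lower without SW1 fish 1, 8 and 0 without FMC fish 2, and 7 and 7 without both, and the ion list 7 and 4, 7 and 2, and 12 and 5. The shares over all contigs were then 1.38% and 1.97%, 2.08% and 1.1%, and 2.87% and 2.13%. These counts are of 383, 384 and 377 solute carrier contigs and of 158, 161 and 153 ion contigs. Aquaporin FA-CHIP, a water channel, had 7.48, 9.82 and 9.31 CPM in the FMC fish and 26.6, 15.4 and 23.2 CPM in the SW1 fish, a log2 fold change of 1.29 (SE 0.32). The 5 contigs of this name had log2 fold changes of -1.40 to 1.29, with 2 above 0. NCBI contigs of this name were at -1.29, -1.35 and -0.22, each with overlap. Uromodulin, the main protein that kidney tubules secrete, had 42.6, 74.3 and 61.6 CPM in the FMC fish and 162, 101 and 128 CPM in the SW1 fish, a log2 fold change of 1.12 (SE 0.337). Both were without overlap, and they made up the 2 higher contigs of the 14 in the kidney tubule list, whose median was 0.00. That list summed to 101, 308 and 143 CPM in the FMC fish and 274, 181 and 214 CPM in the SW1 fish, which overlapped. How much tubule each head kidney sample held was not measured.

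Genes of the general cell machinery were close to the background. Ribosomal proteins had 1 higher and 1 lower contig of 233, translation factors and tRNA ligases 0 and 0 of 375, the proteasome 0 and 2 of 212, and histones and chromatin 0 and 0 of 195. Without both fish that stood apart, the counts were 3 and 1 of 231, 9 and 6 of 373, 5 and 3 of 210, and 3 and 9 of 195. All contigs then gave 2.87% higher and 2.13% lower. The sums of some of these lists varied widely within a diet. Ribosomal protein contigs took 77700, 76500 and 78800 CPM in the FMC fish but 59400, 113000 and 73300 CPM in the SW1 fish. Proteasome contigs took 10200, 5370 and 9190 CPM against 4100, 13400 and 8920 CPM, and DNA replication contigs 11600, 5120 and 9590 CPM against 4610, 10800 and 9510 CPM. In the last 2, FMC fish 2 and SW1 fish 1 were the lowest of their diets, the same fish that stood apart in the principal component analysis. Transposon-like contigs gave 1 higher and 3 lower of 144, and the lower ones were all named after LINE-1 elements.

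Markers of other cell types and of neighbouring organs were read beside these results as counts only. Thrombocyte and coagulation contigs gave 2 higher and 0 lower of 57, liver and plasma proteins 1 and 2 of 35, pancreas 0 and 1 of 22, neutrophil granules 1 and 0 of 47, and macrophages 1 and 0 of 44. B cell and immunoglobulin contigs gave 1 and 1 of 55. T and cytotoxic cells gave 5 and 0 of 79 (6.33% higher) with a median of 0.24, and 12 and 0 of 79 without FMC fish 2. Chemokines and their receptors gave 6 and 1 of 70 (8.57% and 1.43%). All contigs gave 1.17% higher and 0.785% lower, and 2.08% and 1.1% without FMC fish 2. MHC class I gave 1 and 1 of 15, MHC class II 0 and 0 of 9, the interferon response 1 and 1 of 138, and complement 1 and 0 of 41. The lower contigs of the liver list with 10 counts in 3 fish were 2 of retinol-binding protein 4-B, and again FMC fish 2 stood alone, at 73.9 CPM on one of them against 2.44 to 9.22 CPM in the other 5 fish. Antithrombin-III, a plasma inhibitor of coagulation, was the higher one, at 27.2, 33.3 and 12.1 CPM in the FMC fish and 52.4, 49.9 and 45.8 CPM in the SW1 fish.

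Contigs that belonged to no list and separated the diets included signalling and membrane proteins. Protein C-ets-2, a transcription factor downstream of Ras and MAP kinases, was read on 3 contigs with nearly equal outlines. On contig 47770 the FMC fish had 7.56, 10.9 and 10.1 CPM, the SW1 fish 22.8, 23.1 and 22.8 CPM and the SW2 fish 19.3, 19.5 and 18.8 CPM, and the log2 fold changes of the 3 contigs were 1.26 (SE 0.298), 1.09 (SE 0.298) and 1.17 (SE 0.32). The spread within each seaweed diet was small here, and SW1 and SW2 were close. A MAP kinase-interacting kinase, which phosphorylates a translation initiation factor, had 21.9, 38.1 and 42.3 CPM in the FMC fish and 147, 90.2 and 70.9 CPM in the SW1 fish, a log2 fold change of 1.58 (SE 0.377). Lysosome-associated membrane glycoprotein 3, a lysosomal protein of maturing dendritic cells in mammals, had 24.9, 48.0 and 42.4 CPM in the FMC fish and 99.0, 84.1 and 84 CPM in the SW1 fish, a log2 fold change of 1.2 (SE 0.33).

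Lower contigs of no list included a cytokine and regulators of actin and myosin. The cytokine interleukin-1 beta had 0.831, 1.62 and 1.12 CPM in the FMC fish and 0.275, 0.668 and 0.174 CPM in the SW1 fish, a log2 fold change of -1.76 (SE 0.582), on a contig with few counts. Protein phosphatase 1 regulatory subunit 12C, which sets myosin activity, had 13.5, 28.7 and 14.6 CPM in the FMC fish and 7.48, 11.8 and 8.19 CPM in the SW1 fish. A myristoylated alanine-rich C-kinase substrate contig, a membrane and actin regulator, had 3.16, 6.01 and 5.05 CPM in the FMC fish and 1.85, 1.47 and 2.53 CPM in the SW1 fish. On the NCBI reference the regulatory subunit had a log2 fold change of -0.16 and the substrate of 0.03, both with overlap. The members chosen by smallest p among contigs without overlap had to differ, so their number supports nothing.

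The NCBI reference gave a second count of the same reads, not new fish. There, edgeR called 3 of 22854 contigs (0.0131%), all lower, 284 were higher at an unadjusted p under 0.05 (1.24%) and 208 lower (0.91%). One called contig was beta-2-microglobulin, an MHC light chain, with 28, 30 and 19 counts in the FMC fish and 0, 1 and 1 counts in the SW1 fish. The SW2 fish had 0, 30 and 0 counts, so that SW2 fish 2 sat with FMC and the other two with SW1. The other 2 had no protein name, with log2 fold changes of -4.26 (SE 0.46) and -3.34 (SE 0.362), both at an adjusted p of 0.0489. The former had 46.1, 85.8 and 47.6 CPM in the FMC fish and 4.95, 1.84 and 2.29 CPM in the SW1 fish, and the SW2 fish had 61.8, 2.58 and 112 CPM. The latter had 150, 15 and 312 CPM in the SW2 fish. On both, SW2 fish 2 was as low as the SW1 fish, as on the de novo contigs that fell.

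Endocrine contigs of the NCBI reference were few. Of 5 glucocorticoid response contigs 2 were higher and 0 lower. TSC22 domain family protein 3 had 178, 502 and 390 CPM in the FMC fish and 1510, 655 and 523 CPM in the SW1 fish, a log2 fold change of 1.31 (SE 0.493), and here the fish did not overlap. Sgk1 had log2 fold changes of 1.01 (SE 0.367) and 0.95 (SE 0.494) on its contigs. Cryptochrome-1 had 19.1, 37.2 and 33.0 CPM in the FMC fish and 132, 51.1 and 69.4 CPM in the SW1 fish on 1 of 3 contigs, a log2 fold change of 1.49 (SE 0.411), and log2 fold changes of -0.48 and -0.05 on the others. The cholesterol side-chain cleavage enzyme had a log2 fold change of 1.70 without overlap. Of 4 interrenal contigs on this reference 1 was higher, 2 were above 0 and the median was 0.22. Without SW1 fish 1, 0 of the glucocorticoid response contigs were higher on this reference, and without FMC fish 2, 3 were.

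The direct comparison of the seaweed diets, fitted over all 9 fish, called 2 of 87598 contigs (0.00228%), contig 45761 and sorting nexin-18, both higher in SW1. An unadjusted p under 0.05 was reached by 5504 contigs (6.28%), near the share of 0.05 that this threshold lets pass without any difference. This fit used 9 fish, so its share cannot be set against those of the 6-fish fit of SW1 and FMC. Of the leading contigs, pleiotrophin contig 57447 lay lower in SW2 (0.104, 1.71 and 0.903 CPM) than in SW1, as did tyrosine-protein phosphatase non-receptor type 12 (11.4, 11.9 and 2.91 CPM), with unadjusted p-values of 6.92e-05 and 0.00122 from edgeR that did not pass adjustment. FKBP5, cryptochrome-1 and protein C-ets-2 gave unadjusted p-values over 0.05 on every contig named above, which does not show that the seaweed diets act alike on them. Since both seaweed diets were set against the same FMC fish, low values in these fish enter both comparisons.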

How the data were processed

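Head kidney RNA was sequenced from 3 fish per diet. Reads were aligned by the authors, fish by fish, with TopHat2 2.0.5 (version in the submitters' processing notes) to 87600 contigs that they assembled de novo and to 48223 S. salar cDNA sequences. They removed secondary alignments with SAMtools 0.1.18 and counted reads per sequence with HTSeq 0.5.3p9. The values the authors deposited are raw counts, 1 per contig and fish, without normalization or pooling. Their tables also hold fold changes and p-values from DESeq, which were not used. Short reads of near-identical alleles, duplicate genes or contig fragments can be split between contigs, so single contigs are less certain than the names they share. Contigs are given without genome coordinates or sequence. Reads that fell on no contig were not analysed here.

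From the counts, contigs whose counts summed to at least 10 in the 6 fish were scaled by TMM and tested with edgeR 4.0.16 (R 4.3.3, glmQLFit and glmQLFTest, no covariate), with Benjamini-Hochberg adjustment over all contigs and calls at an adjusted p under 0.05. SE is the log2 fold change divided by the root of the F statistic, two-sided tests throughout. CPM uses TMM factors over the 9 fish. SW1 minus SW2 was fitted over all 9 fish. The 48 lists were taken from contig descriptions by fixed words and are described by counts, with no test of a list. Members and lists were chosen with earlier results of these data known. Named were called contigs, up to 4 members of each list outside the immune lists with the smallest p and at least 10 counts in 3 fish, and up to 15 contigs per direction of no list without overlap between the diets. Further list members with an unadjusted p under 0.05 were added after their values were seen.

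Alternatives were RLE size factors, DESeq2 1.42.0, limma voom (limma 3.58.1), edgeR's legacy dispersions, no minimum count, at least 10 counts in 3 fish, all 9 fish in the fit, the replicate number as a block, and each fish left out. The steps were tested on simulated data. Fish of 1 diet differed beyond sampling noise (on the de novo reference, chi-square divided by its degrees of freedom was 5.38 to 34.4 over the 3 diets for contigs of 20 counts or more), so none was counted as a duplicate. De novo totals of 8259299 to 12228633 counts per fish mean that contigs of about 1 CPM rest on some 10 counts, and 3 fish per diet limit every test.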

Additional observations from a re-analysis of the deposited data

Results flagged for a closer look

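The seaweed diets differed from each other, by a test of the difference itself, on 2 contigs. Contig 45761, which has no protein name, had a log2 fold change of 4.28 (SE 0.394) in SW1 minus SW2, with an adjusted p of 0.00256 from edgeR over all 9 fish. Its counts in SW1 were 275, 164 and 189, in SW2 10, 10 and 8, and in FMC 6, 14 and 15, so SW2 and FMC were both low, and SW2 minus FMC was -0.34 (SE 0.434). Sorting nexin-18 had a log2 fold change of 8.12 (SE 1.0) in SW1 minus SW2, with an adjusted p of 0.00991 from edgeR. Its counts in SW1 were 405, 21 and 89 and in SW2 0, 1 and 0, so the size of this fitted value depends on the prior count, and the 3 SW1 fish differed widely among themselves. Whether each contig reflects the diet or an allele or duplicate gene that these fish carry was not tested. With 3 fish per diet, no sample was tested as an outlier within its diet.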

How the results depend on the processing

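On the de novo reference, where edgeR called 4 contigs, DESeq2 called 27 and the fit without FMC fish 2 and SW1 fish 1 together called 98. limma voom, the filter of at least 10 counts in 3 fish and the replicate block each called 0, and leaving out 1 fish gave 0 to 7. Contigs at an unadjusted p under 0.05 and higher in SW1 (1024) numbered 534 with DESeq2, 768 with limma voom, 515 with the stricter filter, 716 with the block, 2419 without both fish and 800 to 1817 with 1 fish left out. Lower contigs (687) numbered 350 with DESeq2, 456 with limma voom, 212 with the stricter filter, 1081 with all 9 fish, 377 with the block, 1800 without both fish and 531 to 1700 with 1 fish left out. On the NCBI reference, where edgeR called 3, DESeq2 called 32, the fit without both fish 18, leaving out 1 fish 1 to 7, and 0 were called with RLE size factors, limma voom, legacy dispersions, the stricter filter, all 9 fish or the block. Higher contigs there (284) numbered 291 with RLE, 148 with DESeq2, 196 with limma voom, 241 with legacy dispersions, 146 with the stricter filter, 358 with all 9 fish, 196 with the block, 481 without both fish and 253 to 428 with 1 fish left out. Lower contigs (208) numbered 202, 121, 157, 172, 80, 239, 154 and 359 in the same order, and 169 to 355 with 1 fish left out. The causes were not tested, except that the stricter filter tests fewer contigs.

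Values were followed through the alternatives for more contigs than the text names. Of these values, 1695 kept their direction and side of the threshold. A further 24 passed it where the main value did not, 32 lost it and 18 turned. Most of these contigs passed the threshold in no fit, so keeping their side of it says little. All 18 turned when FMC fish 2 was left out, alone or with SW1 fish 1. With 1 fish left out in turn, log2 fold changes ran from -2.85 to 0.34 and -3.0 to 0.59 for the retinol-binding protein 4-B contigs, from -2.15 to 0.08 for a heat shock cognate 71 kDa protein contig, from -1.77 to 0.08 for catalase, -2.12 to 0.20 for ankyrin-1, -2.44 to 0.26 for 2-oxoglutarate dehydrogenase, -1.85 to 0.24 for hypoxia-inducible factor 1 alpha, -1.4 to 0.06 for oxysterol-binding protein-related protein 11, -2.07 to 0.62 for hyaluronidase-2 and -1.06 to 0.35 for thyroid hormone receptor alpha. Without both fish, the heat shock cognate contigs were at 0.29, 0.19 and 0.35, retinol-binding protein 4-B at 0.37 and 0.32, hypoxia-inducible factor 1 alpha at 0.25, hyaluronidase-2 at 0.49 and chymotrypsin B at -0.02. The replicate numbers did not pair the fish. Deviations of same-numbered FMC and SW1 fish correlated at -0.326, -0.246 and 0.182 on the de novo reference, and with the block none of the 4 called contigs passed (adjusted p = 0.707 for 3 of them and 0.957 for RASSF2).

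The depth limits contigs near 1 CPM, and both references share the same fish and reads, so neither is independent of the other. LPS was given to every fish, and each diet was represented by 3 fish from separate tanks.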

Other observations

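A few NCBI contigs were read in 1 diet and hardly in the other without passing adjustment. Arachidonate 5-lipoxygenase-activating protein, which feeds leukotriene synthesis, had counts of 1, 2 and 0 in FMC, 36, 81 and 40 in SW1, and 27, 38 and 31 in SW2 (log2 fold change 5.48, SE 0.815, adjusted p = 0.133 from edgeR). NADH dehydrogenase 1 beta subcomplex subunit 9, a part of respiratory complex I, had 0 counts in all 3 FMC fish and in SW2 fish 1, and 10, 23 and 22 counts in the SW1 fish. Cyclin-dependent kinases regulatory subunit 1 had 0 counts in all 3 FMC fish and counts of 15, 13 and 8 in SW1. Glucose-6-phosphate isomerase, an enzyme of glycolysis, had counts of 3, 4 and 2 in FMC, 5, 711 and 920 in SW1, and 5, 4 and 1155 in SW2, so its contig was read well in only 2 SW1 fish and 1 SW2 fish. High mobility group protein B2, a chromatin protein of dividing cells, had counts of 34, 23 and 33 in FMC, 5, 8 and 5 in SW1, and 14, 6 and 26 in SW2 (log2 fold change -2.45, SE 0.438). These contigs were chosen after their values were seen.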
